A study of Mus musculus with 2 samples.

Results

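Type I interferon-stimulated genes are the genes that cells switch on when interferon alpha or beta reaches them, and 35 such genes of the mouse were listed by name. Of these, 33 were rows of the deposited expression matrix, out of 21041 genes in all, and are described here as the members. Mx1 and Mx2 were not analysed here. The study profiled single cells from distal colon adenomas of mice, using the 10x Genomics droplet platform, and its title concerns instability of chromosomes that starts at telomeres. All cells came from Apcmin;LSL-mTERT mice aged 25 weeks, which inherit a truncated Apc gene and carry a mouse telomerase allele behind a removable stop. The labels name 1 library of a group called G0+T and 1 of a group called G4+T. The sources used here give neither the number of mice or adenomas behind each library nor what removed the stop.

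The authors' annotation gives every cell a class, CIN_high or CIN_low, CIN standing for chromosomal instability. All 6189 cells of the first library were CIN_high and all 7908 cells of the second were CIN_low, so the class is the library. The cell names carry a prefix that matches the G0+T title while their suffix numbers match both titles, and for this reason cells were not assigned to G0+T or to G4+T. The libraries held 51868113 (CIN_high) and 74733715 (CIN_low) unique molecular identifiers (UMIs, 1 for each captured RNA molecule), with medians of 6448 and 7154 per cell. Each gene's level below averages, over cells, its UMIs per 10000 UMIs of the cell, not divided by transcript length, and values are given for CIN_high first. Because each class was 1 library, no difference could be checked against replicates or tested, and a fold difference compares these libraries. Intervals are exact 95% intervals of counting error only, and those beside a ratio were computed from UMIs summed over cells, so a ratio of means can lie outside them. Differences of the libraries by mouse, tissue piece or preparation cannot be told apart from the class. Between the libraries 11 cell barcodes were shared.

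Interferon alpha and beta bind a common receptor, Ifnar1 with Ifnar2, whose kinases Jak1 and Tyk2 phosphorylate Stat2. With Irf9 it forms part of a complex that enters the nucleus and binds the interferon-stimulated response element, a short repeat of GAAA, in the promoters of its targets. The targets include sensors of foreign nucleic acid, proteins that block viral RNA or membranes, and the factor Irf7, which amplifies the response. Interferon lambda, made at epithelial surfaces, uses the same complex, and several members also answer interferon gamma.

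The sequences before the start sites of 6 members are shown, because the letters of the response element were common in member promoters. The element was searched for as GAAA, any 2 bases and GAAA, on both strands, from 250 bases before to 50 bases after each start in the RefSeq promoters of GRCm38.p6. At least 1 match stood in 14 of the 26 member genes in that table (53.8%). Over all 32851 promoters the share was 3.44%, and over 27025 genes it was 3.99%. The gamma-activated letters TTCNNNGAA stood in 7 of the 26 member genes (26.9%) and in 9.55% of all genes. Dhx58, Ifi204, Ifi27l2a, Parp14, Rtp4, Usp18 and Zbp1 were not in the table. Capitals below mark every match to this motif or to its reverse complement, each sequence runs 5' to 3' on the strand of its gene, and the 250 bases before the start are printed. Irf7 (chr7:141266425-141266674 (minus strand)), Ifi44 (chr3:151749911-151750160 (minus strand)), Ifit3b (chr19:34607707-34607956 (plus strand)) and Oasl1 (chr5:114922990-114923239 (plus strand)) are the members with a promoter entry that were at least 1.5-fold higher in the CIN_high epithelium. Ifit3 (chr19:34583279-34583528 (plus strand)), the near copy of Ifit3b, and Isg15 (chr4:156200819-156201068 (minus strand)) were added after their values were seen.
Irf7: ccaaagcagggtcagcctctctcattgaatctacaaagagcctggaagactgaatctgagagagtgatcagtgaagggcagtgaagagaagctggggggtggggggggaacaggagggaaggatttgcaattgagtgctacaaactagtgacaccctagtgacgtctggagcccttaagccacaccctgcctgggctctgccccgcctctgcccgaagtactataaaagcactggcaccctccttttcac
Ifi44: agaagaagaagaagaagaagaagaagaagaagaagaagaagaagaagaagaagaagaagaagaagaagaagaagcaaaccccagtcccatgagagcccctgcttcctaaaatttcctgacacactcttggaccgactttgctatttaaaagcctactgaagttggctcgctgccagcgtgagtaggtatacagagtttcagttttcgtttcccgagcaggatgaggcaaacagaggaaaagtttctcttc
Ifit3b: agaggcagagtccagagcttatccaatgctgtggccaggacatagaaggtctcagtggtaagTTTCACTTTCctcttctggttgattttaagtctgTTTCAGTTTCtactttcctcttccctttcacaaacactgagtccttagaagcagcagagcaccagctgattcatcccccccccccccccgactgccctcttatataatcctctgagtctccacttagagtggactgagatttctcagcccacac
Oasl1: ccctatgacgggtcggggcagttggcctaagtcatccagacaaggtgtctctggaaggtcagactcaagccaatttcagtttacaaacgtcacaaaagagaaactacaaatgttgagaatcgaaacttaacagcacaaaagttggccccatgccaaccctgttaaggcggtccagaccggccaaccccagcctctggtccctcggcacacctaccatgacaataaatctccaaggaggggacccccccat
Ifit3: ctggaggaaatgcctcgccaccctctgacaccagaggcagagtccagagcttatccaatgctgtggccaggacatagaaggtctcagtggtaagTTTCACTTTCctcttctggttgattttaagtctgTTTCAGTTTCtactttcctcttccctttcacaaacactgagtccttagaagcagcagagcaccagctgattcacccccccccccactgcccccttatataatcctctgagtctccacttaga
Isg15: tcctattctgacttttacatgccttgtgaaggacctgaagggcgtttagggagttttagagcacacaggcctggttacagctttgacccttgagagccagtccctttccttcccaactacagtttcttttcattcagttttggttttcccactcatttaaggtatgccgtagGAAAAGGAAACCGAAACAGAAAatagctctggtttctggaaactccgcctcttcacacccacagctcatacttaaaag

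In the Isg15 promoter 3 overlapping matches began 78, 72 and 66 bases before the start, and they ran as 1 unbroken stretch. Ifit3b held 2 matches, at 188 and 154 bases before its start, and Ifit3 held the same stretch at 156 and 122 bases. The promoters of Ifit3 and Ifit3b were identical at 258 of 260 aligned bases, and their longest transcripts at 98.0% of 1697 aligned bases. How reads that match both copies were counted was not examined, so their separate values are uncertain. The printed windows of Irf7, Ifi44 and Oasl1 held no match, which says only that these letters were not there.

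The members lie in several clusters of the genome (mm10). Ifit2, Ifit3, Ifit3b and Ifit1 stand in this order on chromosome 19, from 34550694 to 34650009. Rsad2 (chromosome 12, 26442746 to 26456452) neighbours Cmpk2 (26469204 to 26479837), and Oasl2 neighbours Oasl1 on chromosome 5. Ifi204 (173747293 to 173766943) and Ifi203 (173920407 to 173942672) lie apart on chromosome 1. Irf7 (141262706 to 141266481) and Ifitm3 (141009586 to 141010770) both lie on chromosome 7. All 33 members are annotated as protein-coding.

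Across cell types, no single type was highest for every member. Myeloid cells were divided by whether their UMIs of neutrophil genes outnumbered those of mononuclear phagocyte genes. This gave a neutrophil range of 671 and 2122 cells and a mononuclear range of 2259 and 3226 cells. These are ranges of a score and not cell types, and 3.65% and 4.92% of myeloid cells lay within 2-fold of the dividing line. Summed over all members but Ifitm3, the level was 33.9 and 30.1 in the neutrophil range, 23.6 and 23.3 in the mononuclear range, 18.3 and 17.4 in endothelial cells, and 15.9 and 13.2 in epithelial cells. T/NK cells of both libraries stood at 14.5. Fibroblasts stood at 29.5 in the CIN_high library (966 cells), and the 21 CIN_low fibroblasts at 19.6.

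Among types and ranges with 50 or more cells in each library, the neutrophil range had the highest level of Isg15, the ubiquitin-like protein that is joined to other proteins, at 3.45 and 3.58. The mononuclear range followed at 1.73 and 1.39, endothelial cells stood at 1.1 and 0.984 and epithelial cells at 0.919 and 0.683. Rsad2, the antiviral enzyme viperin, stood at 2.01 and 2.04 in the neutrophil range and at 0.189 and 0.139 in epithelial cells. Oasl2, a relative of the oligoadenylate synthases, stood at 3.25 and 2.37 in the neutrophil range and at 0.541 and 0.388 in epithelial cells. Trim30a and Rtp4 had the same leading range, at 3.18 and 2.31 and at 2.13 and 1.57.

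Other members were led by other cells. Ifi203 and Ifi204, of the family that binds DNA, stood at 1.77 and 1.93 and at 1.94 and 2.06 in the mononuclear range, but at no more than 0.0603 in epithelial cells. Ifi27l2a, a small protein of membranes, was highest in fibroblasts, at 16.2 in 966 CIN_high cells and 7.53 in 21 CIN_low cells, against 0.322 and 0.285 in epithelial cells. Ifitm3, which keeps viruses from fusing with membranes, stood at 18.4 and 23.2 in epithelial cells, 20.0 and 14.6 in endothelial cells and 20.1 and 22.6 in pericytes. It was lowest in the lymphocyte types, with 0.775 and 2.42 in T/NK cells. Lgals3bp, a secreted glycoprotein, was at 2.52 and 1.94 in epithelial cells and at 0.107 and 0.125 in the neutrophil range. Usp18, the protease that removes Isg15 and restrains the receptor, also had its highest level in epithelial cells, at 0.413 and 0.370, with the other types compared at 0.225 or less. Parp14, an ADP-ribosyltransferase, was between 0.828 and 3.72 in the types with 50 or more cells in each library.

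Bst2, which tethers budding virus, stood highest in the cells annotated as B cells, at 9.03 (40 cells) and 15.9 (93 cells). The level there followed a marker of plasmacytoid dendritic cells, Siglech. The 11 and 43 of these cells with a Siglech UMI had 29.0 and 31.6 of Bst2, and the 29 and 50 without one had 1.44 and 2.50. The antibody joining chain gene Jchain, of plasma cells, stood at 0 and 0.356 in the former and at 46.9 and 333.9 in the latter. Bst2 was at 1.34 and 1.28 in epithelial cells and at 2.83 and 2.88 in endothelial cells.

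**Figure D1:**
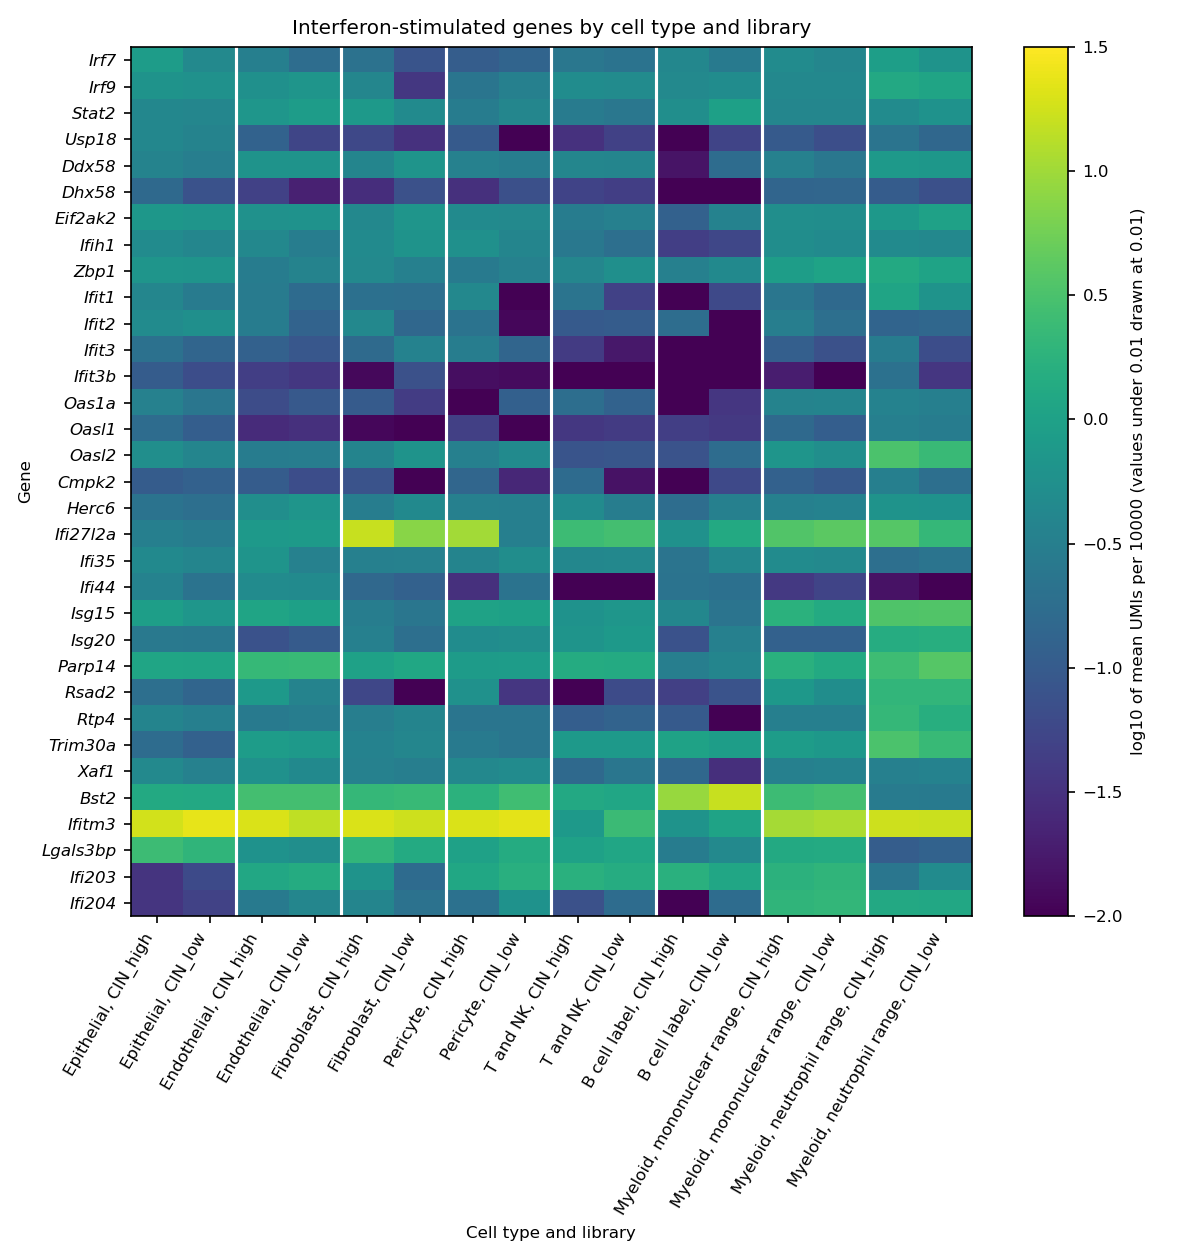
Log10 of the mean UMIs per 10000 of each member (rows) in each cell type and library (columns, CIN_high left and CIN_low right of each pair). Isg15, Oasl2, Rsad2, Trim30a and Rtp4 are brightest in the neutrophil range, Ifi27l2a in fibroblasts and Bst2 in cells labelled as B cells.

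Within the epithelium the members followed the authors' subtypes. Enterocytes (107 and 98 cells), the absorptive cells of the gut surface, had the highest sum of the members without Ifitm3, at 29.5 and 35.3. Stem_cell_1 (346 and 338 cells) was at 20.4 and 16.2, the complement-positive stem cells (39 and 85 cells) at 16.3 in both libraries, and Cancer_cell_1 (549 and 710 cells) stood at 12.9 and 10.7. Secretory cells (54 and 48) were at 8.64 and 9.29, and the p57-positive subtype (77 and 211 cells) at 7.02 and 8.82. Isg15 stood at 3.10 and 4.01 in enterocytes, 1.36 and 0.945 in Stem_cell_1, 0.488 and 0.287 in Cancer_cell_1 and 0.133 and 0.216 in the p57-positive subtype. Ifit1 was at 1.40 and 2.0 in enterocytes, with every other subtype of 50 or more cells in a library at 0.524 or less. Irf7 was at 3.60 and 2.95 in enterocytes and at 1.09 and 0.632 in Stem_cell_1.

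Ifitm3 did not follow this sum. It was lowest in enterocytes, at 1.52 and 1.44, next lowest in secretory cells, at 3.45 and 6.25, and highest in the p57-positive subtype, at 33.1 and 32.3, with Cancer_cell_1 at 26.3 and 29.6 and Stem_cell_1 at 9.80 and 15.1. Usp18 also did not follow Isg15: it stood highest in the p57-positive subtype, at 0.886 and 0.937, against 0.346 and 0.550 in enterocytes. In the subtype named complement-positive stem cells (39 and 85 cells), Ifi203 was at 0.327 and 0.805 and Ifi204 at 0.440 and 0.702. All other subtypes present in both libraries had 0.378 or less of either gene, a bound that lies above the CIN_high Ifi203 value here. The complement-positive stem cells held the macrophage gene C1qa at 9.80 and 7.66 and the leukocyte gene Ptprc at 2.06 and 1.93. Over all epithelial cells these stood at 0.448 and 0.499 and at 0.155 and 0.240. The part of leukocyte RNA in the Ifi203 and Ifi204 levels was not tested.

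**Figure D2:**
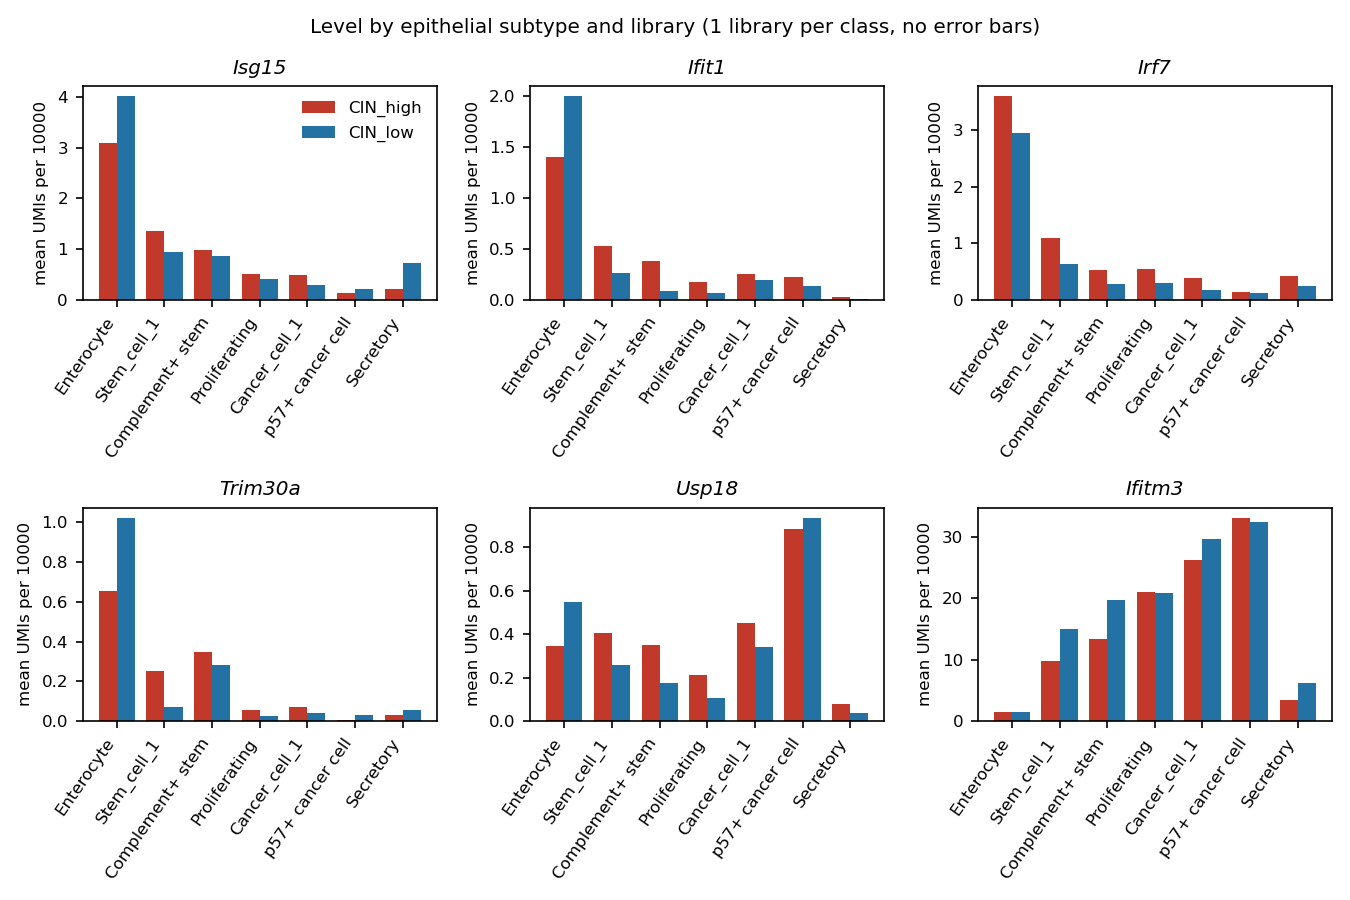
Mean UMIs per 10000 of 6 members in 7 epithelial subtypes, red for CIN_high and blue for CIN_low, with 1 library per bar and no error bar. Isg15, Ifit1 and Irf7 are tallest in enterocytes, whereas Ifitm3 is lowest there and both Ifitm3 and Usp18 are tallest in the p57-positive subtype.

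The first comparison asked how the epithelium of the CIN_high library (1316 cells) differed from that of the CIN_low library (1725 cells). Most members had a higher level in CIN_high epithelium, but few by much. Of 33 measured members, 5 were at least 1.5-fold higher and 1 lower, and 28 had a ratio above 1. Among 13304 measured genes 4.16% were that much higher and 7.7% that much lower. The median log2 ratio of the members was 0.23, against -0.097 over all genes. The sum of all members but Ifitm3 was 1.2-fold higher (1.26 to 1.30 from summed UMIs). With Ifitm3, the most abundant member, the sums were 34.2 and 36.4.

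Among the regulators, Irf7 stood at 0.848 and 0.441 and was 1.92-fold higher (2.03 to 2.35), with a UMI in 43.5% and 29.4% of cells. The partners of the nuclear complex differed little: Irf9 was at 0.624 and 0.590 and Stat2 at 0.417 and 0.409. Usp18 had a ratio of 1.12.

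Among the sensors, Dhx58, a relative of the viral RNA sensors that lacks their signalling domain, had the largest ratio of all members. It stood at 0.158 and 0.0755 and was 2.09-fold higher (1.97 to 2.72), in 18.7% and 10.6% of cells. The RNA sensors Ddx58 and Ifih1 had ratios of 1.18 and 1.22, and the kinase Eif2ak2 and the Z-form nucleic acid sensor Zbp1 ratios of 1.07 and 1.04.

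Of the Ifit genes, which encode proteins that bind foreign RNA, Ifit3b was 1.58-fold higher (0.105 and 0.0663, 1.48 to 2.22). Its near copy Ifit3 stood at 0.201 and 0.137, and Ifit1 at 0.403 and 0.282, both under the 1.5-fold line. Ifit2 stood at 0.483 and 0.553, with a ratio of 0.872. Oasl1 was 1.55-fold higher (0.173 and 0.111, 1.46 to 1.94), while Oas1a, which makes the oligoadenylates that activate RNase L, and Oasl2 had ratios of 1.46 and 1.39.

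Ifi44 was 1.63-fold higher (0.353 and 0.217, 1.5 to 1.84). The other effectors with ratios above 1.2 were Trim30a (1.39), Rsad2 (1.36), Isg15 (1.35), Lgals3bp (1.30) and the apoptosis factor Xaf1 (1.29). Rtp4, Herc6, Ifi35, Ifi27l2a, Parp14, Isg20 and Bst2 had ratios between 1.02 and 1.18. Below 1 stood Ifitm3 (0.792), the nucleotide kinase Cmpk2 (0.833), Ifi204 (0.706) and Ifi203 (0.550). Ifi203 was at 0.0331 and 0.0603 and was the member called lower. It stood at a log2 ratio of -0.032 once cells marked as doublets were left out.

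The size of the difference depended on the subtypes and on how cells were weighed. With both libraries set to 1 mix of subtypes, 2 members stayed at least 1.5-fold higher, where 3.62% of all genes were. These were Dhx58 at a log2 ratio of 0.89 and Irf7 at 0.66, and the median was 0.11. Ratios of summed UMIs, which give deep cells more weight, put 10 members past the line, where 4.24% of all genes were higher by the same ratio, with Ifit3 at 2.23-fold (1.92 to 2.58), Ifit1 at 1.59-fold and Isg15 at 1.57-fold. In alternatives chosen after seeing the data, 10 members were higher without the enterocytes (4.51% of all genes) and 3 without the p57-positive subtype (4.41% of all genes).

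**Figure D3:**
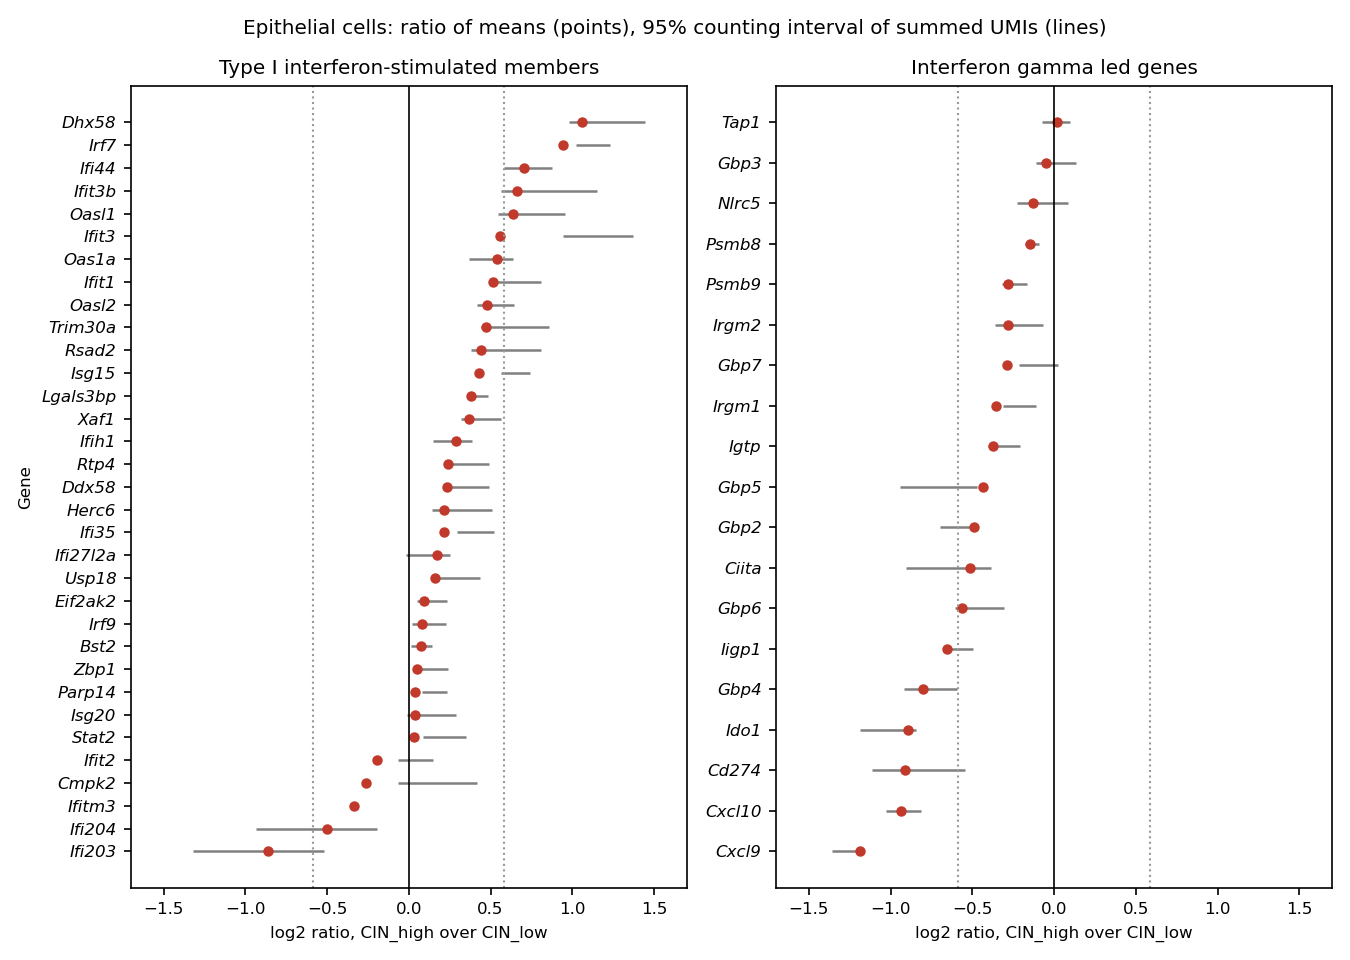
Log2 ratio of the mean level in CIN_high over CIN_low epithelium (red points) for the 33 members and for 19 genes led by interferon gamma, with the exact 95% interval of the ratio of summed UMIs (grey lines, counting error only, so a point can lie outside its line) and the 1.5-fold lines dotted. Most members lie right of 0 and most interferon gamma led genes lie left of it.

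Other genes of the pathway were also compared in epithelium. Of 11 measured receptor and proximal signalling genes, 0 passed 1.5-fold in either direction, 4 had a ratio above 1 and the median was -0.020, against -0.097 over all genes. The log2 ratios of these receptor and signalling genes ran from -0.29 to 0.17. Of 10 measured genes of nucleic acid sensing upstream of interferon, 0 passed, 2 had a ratio above 1 and the median was -0.14. The log2 ratios of these sensing genes ran from -0.47 to 0.16. Of 8 regulators 2 were lower and 0 higher (7.7% and 4.16% of all measured genes), with a median of -0.30. These were Socs1, an inhibitor of the kinases, 2.19-fold lower (0.0504 and 0.111), and Irf5, 1.56-fold lower (0.0294 and 0.0460).

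Over all epithelial cells, genes led by interferon gamma had the opposite sign to most members. Of 19 measured, 6 were lower, 0 were higher and 1 had a ratio above 1. The median was -0.43, against -0.097 over all genes, of which 7.7% were lower and 4.16% higher. The T cell attractant Cxcl9 was 2.28-fold lower (0.483 and 1.10), Cxcl10 1.91-fold (0.398 and 0.762) and Cd274, the checkpoint ligand PD-L1, had a log2 ratio of -0.91. The difference between the lists was not tested.

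Of 10 listed interferon ligands, Ifnb1, Ifne and Ifng were rows of the matrix, and none was measured in epithelium. Ifnb1 had 44 UMIs in 4 CIN_low cells of the mononuclear range, 1 UMI in 1 CIN_low T/NK cell, and 0 in all other cells. In epithelium 0 UMIs allow a level of up to 0.00139 and 0.000933, from 3 counts of the total. Ifng had 314 and 697 UMIs in the T/NK cells, at levels of 2.95 and 3.66.

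RNA of other cells differed between the libraries beside these values. The 9 neutrophil genes summed to 6.56 and 18.1 in epithelial cells, 4 genes common to myeloid cells to 2.58 and 3.65, and 5 fibroblast genes to 0.480 and 0.0271. At the ratio to S100a8 seen in the neutrophil range, neutrophil RNA would carry a median of 0.472% and 1.28% of a member's epithelial UMIs. The largest shares were 7.34% and 17.3%, both for Ifi204. In CIN_low epithelium the share was also above 10% for Trim30a (14.9%) and Rsad2 (12.9%), and it was 0.252% and 1.22% for Irf7 and 0.142% and 0.715% for Dhx58. These shares cover neutrophil RNA only. The 12 mononuclear phagocyte genes summed to 23.3 and 27.3 in epithelial cells. The part of mononuclear phagocyte RNA in the members, Ifi203 and Ifi204 among them, was not estimated. The epithelial marker genes summed to 94.4 and 88.4 in the cells labelled epithelial and to no more than 3.99 in the other types.

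The subtypes did not share 1 direction. In Cancer_cell_1, 9 of 30 measured members were higher and 1 lower (background 5.98% higher and 8.48% lower), with a median of 0.33. Rsad2 was 2.47-fold higher (0.142 and 0.0573), Oasl1 2.23-fold, Irf7 2.20-fold (0.389 and 0.177), Ifi44 1.84-fold, Dhx58 1.77-fold, Ifit3 1.74-fold, Trim30a 1.73-fold, Isg15 1.7-fold and Oasl2 1.59-fold. Cmpk2, the genomic neighbour of Rsad2, was the lower member, at 0.0617 and 0.0978, with an interval of 0.537 to 1.06.

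In Stem_cell_1, 10 of 32 members were higher and 2 lower (background 8.73% and 13.1%), with a median of 0.38. Dhx58 was 3.51-fold higher (0.277 and 0.0789, 3.00 to 5.50) and Trim30a 3.48-fold (0.253 and 0.0728, 2.27 to 4.13). Ifi204 (25 and 10 UMIs), Ifit1, Oasl1, Irf7, Ifit3, Lgals3bp, Ifi44 and Usp18 were between 1.56-fold and 3.42-fold higher. Lower were Ifitm3, at 9.80 and 15.1, and Ifi27l2a, at 0.122 and 0.187. In proliferating cells (111 and 199), 9 of 32 were higher and 1 lower (background 11.1% and 13.8%), with a median of 0.18. There Dhx58 was 3.23-fold, Ifit1 2.87-fold, Rsad2 2.36-fold and Irf7 1.86-fold higher, and Ifit2 was lower at 0.393 and 0.764. The intervals of Ifit3 (0.829 to 3.79) and Oasl1 (0.885 to 2.57) there included 1.

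In enterocytes the median had the opposite sign. Of 32 measured members 10 were lower and 1 higher, where 22.9% and 17.4% of all measured genes were. The median was -0.47, against -0.083 over all genes. Ifit3 stood at 0.511 and 1.17 (ratio 0.437, 0.413 to 0.810), Ifit2 at 0.877 and 1.69 (0.519), Dhx58 at 0.232 and 0.410 (0.566), Rsad2 at 0.304 and 0.482 (0.631), Isg20 at 0.391 and 0.653 (0.598) and Cmpk2 at 0.126 and 0.401 (0.314). Stat2, Usp18, Trim30a and Ifi35 had mean ratios between 0.606 and 0.657, but their intervals from summed UMIs included 1. The member called higher, Ifi204, had 10 and 3 UMIs. In these cells the neutrophil genes summed to 11 and 37.8. Of 12 mononuclear phagocyte genes there, 7 were higher and 1 lower in CIN_high, with sums of 42.8 and 40.6, and their part in the Ifi204 value was not tested. At the neutrophil ratio to S100a8, neutrophil RNA would carry 3.68% and 8.13% of the Rsad2 UMIs and 0.210% and 0.355% of those of Dhx58. Over the members the median share was 0.466% and 1.31% and the largest 8.50% and 150.5%. It was 10% or more for 0 members in CIN_high and 3 in CIN_low enterocytes. In the CIN_high enterocytes 108 of 216 Ifit1 UMIs came from 3 cells, and in the CIN_low enterocytes 147 of 346.

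In the p57-positive subtype 4 of 31 members were higher and 6 lower (background 17.4% and 16%), with a median of -0.21. Bst2 stood at 0.457 and 1.17, with a ratio of 0.392 (0.316 to 0.604), and Zbp1 at 0.338 and 0.518. Isg15 stood at 0.133 and 0.216 (11 and 59 UMIs). The members called higher, Ifit1, Oasl1, Ifi27l2a and Cmpk2, were 1.62-fold to 3.35-fold higher on few UMIs, the most being 17 and 36 for Ifit1. None of the differences between subtypes was tested.

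**Figure D4:**
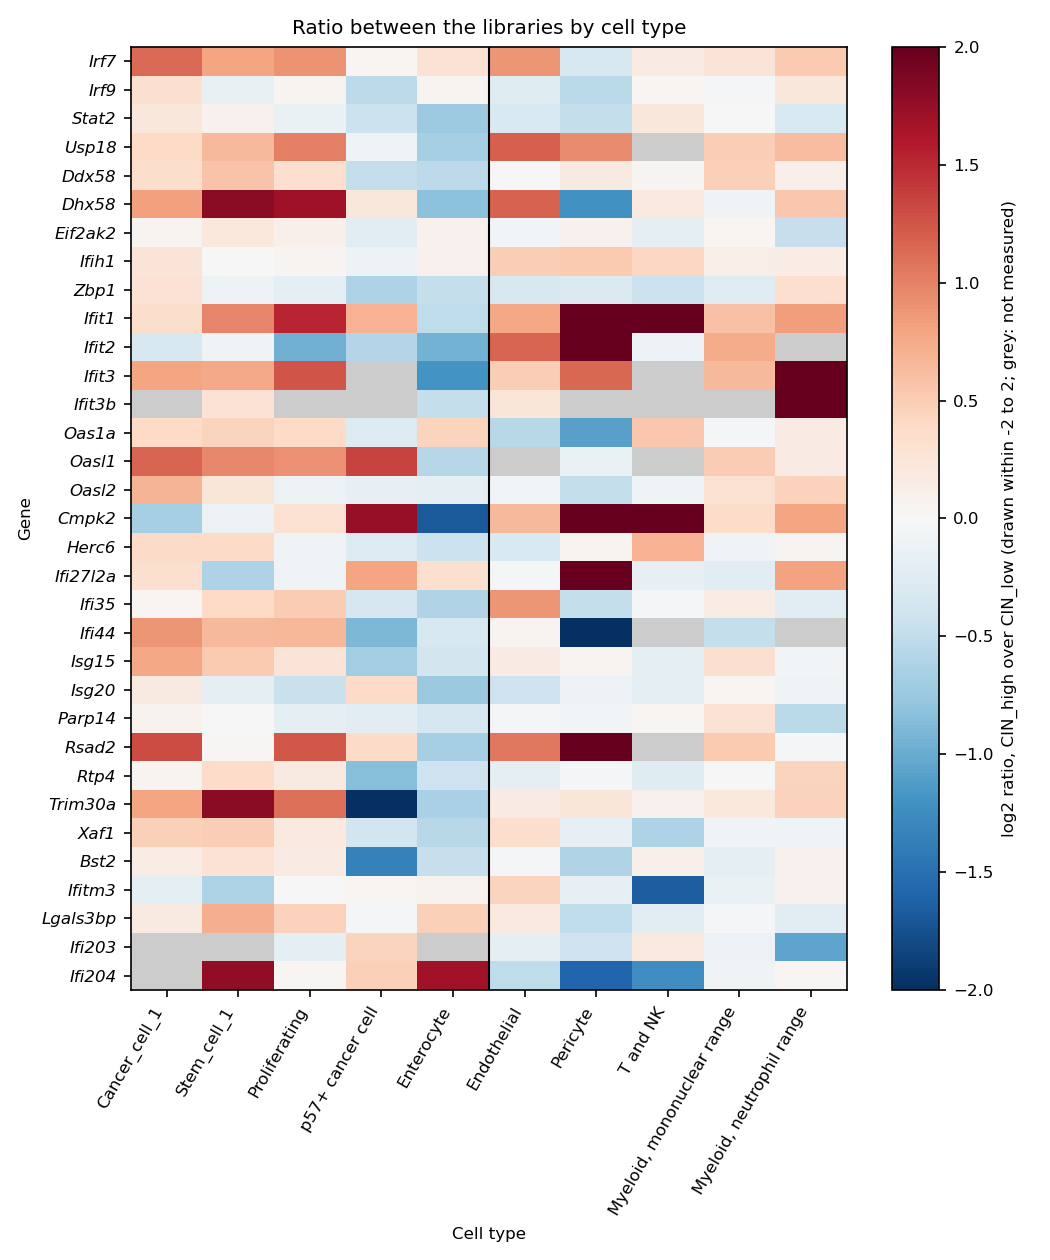
Log2 ratio of the mean level in CIN_high over CIN_low (red higher, blue lower, drawn within -2 to 2, grey not measured) for each member in 5 epithelial subtypes and 5 other types or ranges. Dhx58 is red in Cancer_cell_1, Stem_cell_1 and proliferating cells and blue in enterocytes, and the enterocyte column is mostly blue.

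In myeloid cells (2930 and 5348) the members differed little between the libraries. Of 32 measured, 2 were higher and 1 lower, where 7.83% of all genes were higher and 3.3% lower, and the median was 0.035 against 0.22 over all genes. Ifit2 stood at 0.276 and 0.173 (1.59-fold, 1.42 to 1.79) and Ifit3 at 0.156 and 0.0713 (2.19-fold, 1.76 to 2.49). Isg20, a ribonuclease, stood at 0.429 and 0.688. It had 1.46 and 1.55 in the neutrophil range and 0.124 and 0.121 in the mononuclear range, and the neutrophil range made up 22.9% and 39.7% of the myeloid cells.

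Within the neutrophil range 6 of 31 members were higher and 1 lower, where 20.2% and 12.1% of all genes were. The median of the members was 0.14, against 0.16 over all genes, so as a list they differed little from the other genes. Ifit3 stood at 0.292 and 0.0672 (4.34-fold, 73 and 64 UMIs) and Ifit3b at 0.202 and 0.0361 (5.59-fold, 47 and 36 UMIs). Ifit1 was at 1.11 and 0.621 and Ifi27l2a at 3.72 and 2.13. The 5% of cells with the most Ifit1 held 86.2% and 85.8% of its UMIs, so the level rests on few cells in both libraries. Fibroblast genes summed to 1.53 and 0.0799 in this range, and their part in the Ifi27l2a difference was not tested. Usp18 and Cmpk2 were 1.54-fold and 1.72-fold higher, and Ifi203 was at 0.237 and 0.495. Within the mononuclear range 2 of 32 were higher and 0 lower (background 3.56% and 2.16%). These were Ifit2, at 0.319 and 0.192, and Ifit3, at 0.116 and 0.0740. Both rest on few cells: the 5% of cells with the most Ifit2 held 91.9% and 96.6% of its UMIs. Ifit3 UMIs were found in 73 and 91 cells of this range.

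In endothelial cells (602 and 247) 8 of 32 members were higher and 0 lower, where 12.8% and 19.6% of all genes were. The median was 0.11. Rsad2 stood at 0.775 and 0.373 (2.08-fold, 2.01 to 4.01, 213 and 42 UMIs), Ifit2 at 0.292 and 0.130 (2.23-fold, 71 and 14 UMIs), Ifit1 at 0.288 and 0.169 and Ifi35 at 0.640 and 0.346. The intervals of Irf7 (0.896 to 2.1), Usp18 (0.879 to 4.15), Cmpk2 (0.822 to 4.28) and Dhx58 (20 UMIs in both libraries) included 1. Irf7 had a log2 ratio of 0.021 and Cmpk2 of -0.24 after every cell was thinned to 2000 UMIs. The neutrophil genes summed to 10.1 and 50.3 in these cells.

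In pericytes (83 and 58 cells) 7 of 32 members were higher and 5 lower, where 25.8% and 23.3% of all genes were. The median was -0.12, with 13 members above 0 and 19 below. Ifi27l2a stood at 10.2 and 0.325 (483 and 32 UMIs), found in 49.4% and 10.3% of the cells, and the interval of its ratio was 11.9 to 25.1. Fibroblasts, in which this gene is high, were 966 and 21 cells. Of 5 fibroblast genes in the pericytes, 1 was higher (Lum, 15 and 2 UMIs) and 4 were lower in CIN_high, with sums of 32.9 and 61.1, and their part in the Ifi27l2a difference was not tested. Ifit1 (31 and 1 UMIs) and Rsad2 (39 and 1 UMIs) had 26 and 30 of their CIN_high UMIs in 1 cell each. Bst2 stood at 1.78 and 2.68, and Ifi204 at 0.204 and 0.613.

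In T/NK cells (234 and 414) 3 of 27 members were higher and 3 lower, where 13.4% and 16.8% of all genes were. Ifitm3 was at 0.775 and 2.42, found in 15.8% and 37.4% of the cells, and the interval of its ratio was 0.195 to 0.317. Neutrophil genes summed to 18.6 and 46.6 there, and at the neutrophil ratio to S100a8 they would carry 27.3% and 14.0% of these Ifitm3 UMIs. Of 11 measured mononuclear phagocyte genes 9 were lower in the CIN_high T/NK cells, with a median log2 ratio of -1.28 and sums of 16.5 and 30.6, and their part in the lower members was not tested. Of the 17 Ifit1 UMIs in the CIN_high cells, 16 came from 3 cells, and in the CIN_low cells 17 UMIs came from 12 cells. Ifi204 (11 and 56 UMIs) and Xaf1 (17 and 52 UMIs) were lower, and Herc6 (39 and 62 UMIs) and Cmpk2 (5 and 3 UMIs) higher by the mean. The intervals of Ifit1, Xaf1, Herc6 and Cmpk2 included 1.

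The number of members found in each cell was compared after thinning every cell to 2000 UMIs. In epithelium, at least 5 members were found in 22.1% of CIN_high cells (19.8% to 24.4%) and in 17.4% of CIN_low cells (15.6% to 19.2%). Without thinning the order was reversed, at 82.2% and 85.4%, with median depths of 14032.5 and 15364 UMIs. Enterocytes stood at 44.2% and 44.0%, Stem_cell_1 at 31.4% and 26.4%, Cancer_cell_1 at 16.9% (13.8% to 20.3%) and 11.3% (9.04% to 13.8%) and the p57-positive subtype at 5.19% and 8.57%. The neutrophil range stood at 50.6% (46.0% to 55.2%) and 42.2% (39.9% to 44.5%), and the mononuclear range at 29.1% (27.2% to 31.1%) and 32.9% (31.2% to 34.5%). These orders turned in the neutrophil range without thinning, at 60.4% and 62.1%, and in the mononuclear range for 8 or more members, where CIN_high was 0.831 percentage points higher. Endothelial cells were at 33.3% and 32.5% and T/NK cells at 8.38% and 12.7%. Thinning left out 33 and 9 epithelial cells, 193 and 332 cells of the neutrophil range and 148 and 44 of the mononuclear range.

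**Figure D5:**
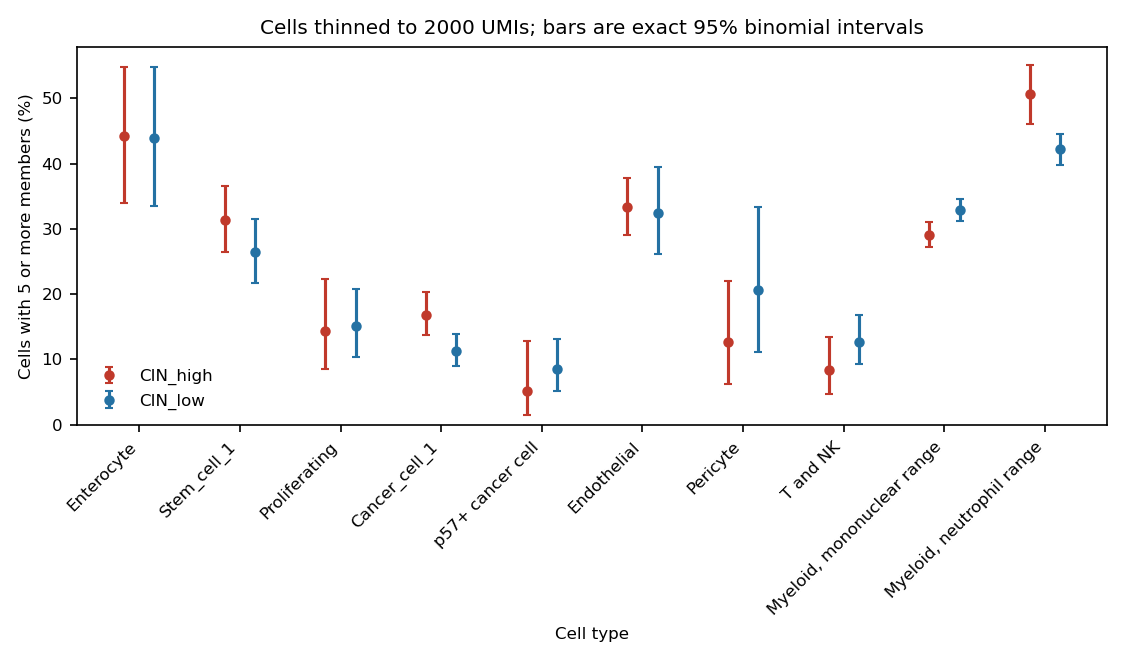
Percent of cells with at least 5 members after thinning to 2000 UMIs, with exact 95% binomial intervals, for CIN_high (red) and CIN_low (blue) cells of each type, subtype or range. The intervals cover the count of cells within 1 library and do not compare classes, and enterocytes and the neutrophil range stand highest.

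Some pairs of members varied together from cell to cell. Over epithelial cells thinned to 5000 UMIs, Isg15 and Ifit1 had a Pearson correlation of 0.51 in the CIN_high library (1207 cells) and 0.50 in the CIN_low library (1623 cells), the highest of 378 and 276 pairs. The median over pairs was 0.14 and 0.091, with 28 and 13 pairs over 0.3, and no other genes were set beside them. The lowest pairs were Ifitm3 with Oasl2 at -0.20 and with Irf7 at -0.24, pooled over subtypes whose Ifitm3 levels differ. Within Stem_cell_1 the lowest pairs with Ifitm3 were -0.12 and -0.084, and in the mononuclear range Ifitm3 with Ifi27l2a was the highest pair, at 0.36 and 0.27. In Stem_cell_1 alone the highest pair was Isg15 with Ifit2 at 0.54 (310 CIN_high cells) and Isg15 with Ifit1 at 0.51 (307 CIN_low cells). In enterocytes it was Isg15 with Ifit1 at 0.60 (88 CIN_high cells) and Ifit3b with Oasl1 at 0.74 (74 CIN_low cells). In the neutrophil range, thinned to 2000 UMIs, Ifit1 and Rsad2 led with 0.60 (478 cells) and 0.57 (1790 cells). The cells of each value share 1 library and 1 depth, and values pooled over epithelium also span subtypes with different levels.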

How the data were processed

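Distal colon adenoma cells of 2 libraries were profiled. The submitters' processing notes name Cell Ranger 2.1.1, Seurat and the mm10 build. The sources used here do not state the annotation release, the filters on cells or how free RNA was treated. The deposited matrix holds 14097 cells and 21041 genes on a natural log scale, as ln(1 + UMIs per 10000), and the authors also deposited a class and a cell type for each cell, with a subtype for epithelial cells. Taken off the log scale, each cell's values total 10000, and 100% of non-zero values were whole multiples of the cell's smallest value (tolerance 0.01), which gave back the UMIs.

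Levels average UMIs per 10000 over cells. Ratios set CIN_high over CIN_low, and a side at 0 was set to 3 UMIs. A member was measured where 2% of the cells in 1 library had its UMI, and was called at 1.5-fold. Cell types and subtypes with at least 50 cells in each library were compared, without a test. Ratio intervals are conditional binomial and share intervals Clopper-Pearson, at 95%, and cover counting error only. Values are given for members with 30 or more UMIs past 1.5-fold in a compared cell type, some of them as a fold, interval or UMIs only. They are also given for the 6 highest levels over all cells. In subtypes, some members past the line are given only by fold or range. Of the other pathway lists, up to 3 genes past 1.5-fold each way are named. The members, lists and rules were chosen with earlier results of these data known. Scrublet in Scanpy 1.11.5 marked 142 (2.29%) and 249 (3.15%) cells as doublets. These cells were kept, and an alternative dropped them. Neutrophil RNA in other cells was estimated from S100a8, at the ratio of each member to S100a8 in the neutrophil range of the same library. Gene positions come from the GENCODE annotation of mm10, matched by symbol, and promoters from RefSeq for 26 of 33 members. The ratio and interval functions were tested on simulated data. The software was SciPy 1.17.1, pandas 2.3.3, numpy 2.4.6 and matplotlib 3.10.9 under Python 3.11.15. Alternatives changed the weighing and scaling of cells, depth, doublets, subtype mix, filters and the fold line. 1 gene of a pathway list is not reported here by name.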

Additional observations from a re-analysis of the deposited data

Results flagged for a closer look

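5 members, Dhx58, Ifit3, Rsad2, Trim30a and Usp18, were at least 1.5-fold higher in some other epithelial subtype of the CIN_high library and lower in its enterocytes. This was 5 of 31 members with 30 or more UMIs (16.1%), and 164 of 7513 genes in all (2.18%). With counting intervals that left out 1 on both sides, 3 members (9.68%) and 33 genes in all (0.439%) had the pattern, and the values of these 3 follow. The values are log2 ratios of CIN_high over CIN_low, with 1 library per class, and the differences between subtypes were not tested. Dhx58 stood at 0.82 in Cancer_cell_1, 1.69 in proliferating cells and 1.81 in Stem_cell_1, and at -0.82 in enterocytes. Ifit3, whose separate value is uncertain beside its near copy Ifit3b, stood at 0.80 in Cancer_cell_1 and 0.76 in Stem_cell_1, and at -1.20 in enterocytes. Rsad2 stood at 1.31 in Cancer_cell_1 and 1.24 in proliferating cells, and at -0.66 in enterocytes. The enterocyte values rest on 107 and 98 cells.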

How the results depend on the processing

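No paired analysis was possible because each class is 1 library and the labels give no replicate numbers that the classes share. The 26 single-member results put through the alternatives were all of cell types. Of these, 15 stayed past 1.5-fold under every alternative applied to them and 11 did not, 3 of which changed sign. Member ratios within epithelial subtypes, the flagged ones among them, were not recomputed under the alternatives. Cmpk2 in endothelial cells stood at a log2 ratio of -0.24 and Herc6 in T/NK cells at -0.14 after thinning to 2000 UMIs, and Isg20 in myeloid cells at 0.036 in the mononuclear range alone. Other fold lines, and alternatives in which a member was not measured, were not applied to single members. The 15 include Ifit1 and Rsad2 in pericytes, with 26 of 31 and 30 of 39 CIN_high UMIs in 1 cell each. They also include Ifit1 in T/NK cells, with 16 of 17 CIN_high UMIs in 3 cells. No alternative was set to leave out such cells. The number of members higher in epithelium, 5, became 10 by summed UMIs (4.24% of all genes by the same call), 8 when centred on the median of all genes (5.37%), 8 after thinning (7.85%), 2 with the subtype mix standardised (3.62%), 14 with the line at a ratio of 5 to 4 (8.87%), and 1 at 2-fold (1.8%). The 1 lower became 0 without cells over 20% mitochondrial (7.58% of all genes), without doublets (7.78%), at 5% of cells (5.31%) or at 2-fold (2.37%). At the ratio of 5 to 4 it became 3 (19.5%). Alternatives chosen after seeing the data left out 1 subtype each: higher counts were 10 without enterocytes (4.51%) and 3 without the p57-positive subtype (4.41%). Lower counts were 2 without Cancer_cell_1 (10.9%), enterocytes (7.52%) or Stem_cell_1 (7.53%). Endothelial higher counts were 5 at 5% of cells (10.1% of all genes) and 4 at 2-fold (5.57%). Endothelial lower counts were 1 by summed UMIs (18%), 2 after thinning (23.8%) and 3 at 5 to 4 (31.6%). In myeloid cells the median was -0.18 when centred. Higher counts there were 1 when centred (3% of all genes), at 5% of cells (4.36%), without Ifit3 and Ifit3b (7.83% with them) or at 2-fold (1.64%). They were 5 at 5 to 4 (31.7%) and 6 in the neutrophil range (20.2%). Myeloid lower counts were 2 after thinning (3.7%), and 0 at 2-fold (1.08%) and in the mononuclear range (2.16%). Pericyte lower counts were 10 after thinning and 11 at 5 to 4, where 30.4% and 33.2% of all genes were lower. In T/NK cells the median was -0.25 by summed UMIs and -0.34 after thinning. Higher counts were 1 at 5% of cells (9.37% of all genes), 5 without a filter (26.7%) and 5 at 5 to 4 (23.9%). Lower counts in T/NK cells were 6 by summed UMIs (14.7%), 6 after thinning (19%) and 5 without a filter (18.9%). The share of cells with 5 or more members, as CIN_high minus CIN_low in percent of cells, was -3.23 in epithelium, -3.73 in enterocytes, -4.65 in Stem_cell_1, -2.89 in Cancer_cell_1 and -1.71 in the neutrophil range without thinning. Thinned to 5000 UMIs it was -7.43 in enterocytes, 10.6 in Cancer_cell_1 and 11.3 in the neutrophil range. For 3 or more members it was 3.14 in epithelium, and for 8 or more -3.99 in enterocytes, 3.87 in the neutrophil range and 0.831 in the mononuclear range. Thinning and filters leave fewer cells or members. The causes of the other changes were not tested. Members with few UMIs in pericytes and T and NK cells are limited by depth.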

Other observations

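18 CIN_high cells that the authors' annotation leaves as unknown had the highest summed level of the members without Ifitm3, at 42.5 UMIs per 10000, with the 4 Ifit genes at 8.03 together. Ifit3 stood at 4.4 there (46 UMIs in 11 cells), Isg15 at 4.36 (44 UMIs in 9 cells) and Ifi27l2a at 5.50 (47 UMIs in 13 cells). Of 12 marker genes of mononuclear phagocytes 6 had a UMI there, with a sum of 91.2, while C1qb, C1qc, Csf1r, Adgre1, Ccr2 and Ly6c2 were at 0. Of 4 genes common to myeloid cells 2 had a UMI, with a sum of 5.33, while Ptprc and Fcer1g were at 0. Of 9 neutrophil genes 5 had a UMI, with a sum of 6.30, and of 6 epithelial genes 4, with a sum of 1.26. Of 5 fibroblast genes 3 had a UMI, with a sum of 10.1. The CIN_low library held 2 cells of this label. In the 25 cells of the Igfbp-positive subtype, all CIN_high, Ifi27l2a stood at 4.63 beside fibroblast genes at a sum of 21.8, and the sum of the members without Ifitm3 was 20.7. In the subtype named for S100a8 and S100a9 (8 and 36 cells), neutrophil RNA at the ratio to S100a8 would carry a median of 101% and 40.8% of a member's UMIs, and member levels were not compared there.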
